A study of Saccharomyces cerevisiae with 21 samples.

Results

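Lysine biosynthesis was followed here through 9 genes of budding yeast (LYS20, LYS21, LYS4, LYS12, LYS2, LYS5, LYS9, LYS1 and LYS14) out of 5449 genes tested on 21 Affymetrix arrays. The genes were taken by name as members of the pathway, and all 9 were represented, each by 1 probe set. The arrays form 7 groups of 3, with RNA from mid-log cultures at 30 °C. The wild type carries MATa his3Δ1 leu2Δ0 met15Δ0 ura3Δ0 per the labels and is called BY4741 in the authors' deposited table. The gal11Δ med3Δ mutant is labelled MATα with med3Δ::kanMX4, med15Δ::kanMX4, his3Δ1, leu2Δ0, met15Δ0 and ura3Δ0, and so lacks both Gal11 (Med15) and Med3. The gal11-myc med3Δ mutant is labelled MATa with GAL11-13MYC::HIS3MX, med3Δ::URA3, his3Δ1, leu2Δ0, ura3Δ0 and srb4Δ::kanMX, and carries SRB4 on the plasmid RY2844 (CEN LEU2 SRB4). It lacks Med3 and has Gal11 with a myc tag. Each of these 3 strains was grown in YPD, a rich medium, and in CSM, a complete synthetic one. BY4742, labelled MATa with his3Δ1, leu2Δ0, lys2Δ0 and ura3Δ0, was grown in YPD only. Mating type genes go against that MATa label in the authors' deposited table, where BY4742 over BY4741 had MFA2 at -164-fold and STE2 at -98.0-fold, both a-cell genes, and MF(ALPHA)1 at 478-fold and STE3 at 38.6-fold, both α-cell genes. Of the 4 strains, BY4742 is the one whose label lists a lys2 deletion. All 4 labels share his3Δ1, leu2Δ0 and ura3Δ0. Besides the Mediator genes, gal11Δ med3Δ differs from wild type in its mating type label and in its LYS2 signal. The other mutant differs in its markers, srb4Δ and plasmid. In a mutant's difference from wild type these cannot be told apart from the Mediator changes. The labels do not say whether the 3 arrays of a group came from separate cultures, so every p-value measures the spread between these arrays, which may be technical.

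Yeast makes lysine from 2-oxoglutarate through 2-aminoadipate. Homocitrate synthase starts the pathway, and homoaconitase and homoisocitrate dehydrogenase follow in mitochondria. Aminoadipate is then reduced by Lys2, and saccharopine is formed and split to give lysine. The intermediate aminoadipate semialdehyde acts as the inducer of Lys14, a zinc cluster activator of the LYS genes, while lysine itself inhibits homocitrate synthase. Gal11 and Med3 belong to the tail of Mediator, the coactivator that links gene-specific activators to RNA polymerase II.

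The deposited values are log2 values centred on each probe set's median within a medium, so a value of 0 is the middle array of that medium and not an absence of signal. Levels cannot be set against each other between genes or between media. In the strain checks, GAL11 was lower than wild type by -6.43 (log2) in YPD and -5.62 in CSM in gal11Δ med3Δ, and PGD1, the gene of Med3, by -4.05 to -4.51 in both mutants and both media. The tagged GAL11 of gal11-myc med3Δ fell by 0.59 in YPD and 0.55 in CSM. MET17, the gene deleted as met15Δ0, was within 0.17 of wild type in both mutants, although the label of gal11-myc med3Δ lists no met15Δ0. A gene is said to have passed, risen or fallen at an adjusted p under 0.05 (limma, Benjamini-Hochberg over 5449 genes, n = 3 arrays per group). Chromosome II stood apart in CSM and chromosome V in gal11Δ med3Δ in YPD, where 259 genes had a median of 0.79 above wild type. No lysine gene lies on chromosome V, and LYS2 is the single member on chromosome II.

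LYS2 encodes the aminoadipate reductase. It lies on the right arm of chromosome II as YBR115C. In YPD its wild type values were -0.26, 0.00 and 0.32, those of gal11-myc med3Δ 0.20, 0.18 and 0.48, and those of gal11Δ med3Δ -6.42, -6.65 and -6.36. In CSM the wild type gave 0.98, 0.91 and 0.97, gal11-myc med3Δ -0.02, 0.00 and 0.11, and gal11Δ med3Δ -5.67, -6.02 and -6.10. Every gal11Δ med3Δ array was thus far below every other array of its medium. The difference from wild type was -6.50 ± 0.13 (SE) in YPD, or 90.4-fold, and -6.88 ± 0.13 in CSM, or 118-fold. Against gal11-myc med3Δ it was -6.76 in YPD and -5.96 in CSM. This loss of signal was known when the genes were chosen, so it is given as a description with no test. GAL11, which is deleted in the same strain, was at -6.43 and -5.62.

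The 3 annotated genes on either side of LYS2 differed from wild type by less than LYS2 in gal11Δ med3Δ. In YPD, SUS1, CYC8, RAD16, TEF2 and MUD1 did not pass against wild type, and TKL2, a transketolase gene, was higher by 0.83 (adjusted p = 0.00410). In CSM the differences were -0.70 for SUS1, -1.16 for CYC8, -1.71 for RAD16, -0.69 for TKL2, -0.02 for TEF2 and -0.72 for MUD1. TEF2 has a near-identical copy, TEF1, so its signal is uncertain. None of the other 281 measured genes of the arm was lower than LYS2 in gal11Δ med3Δ in either medium.

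In gal11-myc med3Δ, LYS2 depended on the medium. Its groups overlapped in YPD, where the mutant was 0.26 ± 0.13 above wild type (adjusted p = 0.137). Without wild type replicate 3 that difference was 0.41 (adjusted p = 0.0151), and over all single arrays left out it ran from 0.12 to 0.41. In CSM all 3 mutant arrays lay below all 3 wild type arrays, and LYS2 fell by 0.92 ± 0.13 (95% interval -1.20 to -0.65, adjusted p = 2.39e-05). The difference between media was itself -1.18 ± 0.18 (adjusted p = 0.000235). Chromosome II as a whole moved in the same way. The median of the 281 other genes of the arm was 0.04 in YPD and -0.71 in CSM in this mutant, with 9 genes higher and 230 lower in CSM, and 89 of the 281 (31.7%) were lower than LYS2. The 105 genes of the left arm had a median of -0.78. The arm medians of gal11Δ med3Δ against the same wild type arrays were 0.03 in YPD and -0.71 in CSM. On the other 15 chromosomes the CSM medians ran from 0.06 to 0.15 in gal11-myc med3Δ and from 0.04 to 0.16 in gal11Δ med3Δ. In a step added after the data were seen, only the genes of the right arm were centred, on that arm's median in each array. LYS2 in gal11-myc med3Δ in CSM was then -0.27 ± 0.13 (adjusted p = 0.120), and its difference between media was -0.52 ± 0.18 (adjusted p = 0.0799). In gal11Δ med3Δ in CSM it was -6.23 on that scale.

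**Figure D1:**
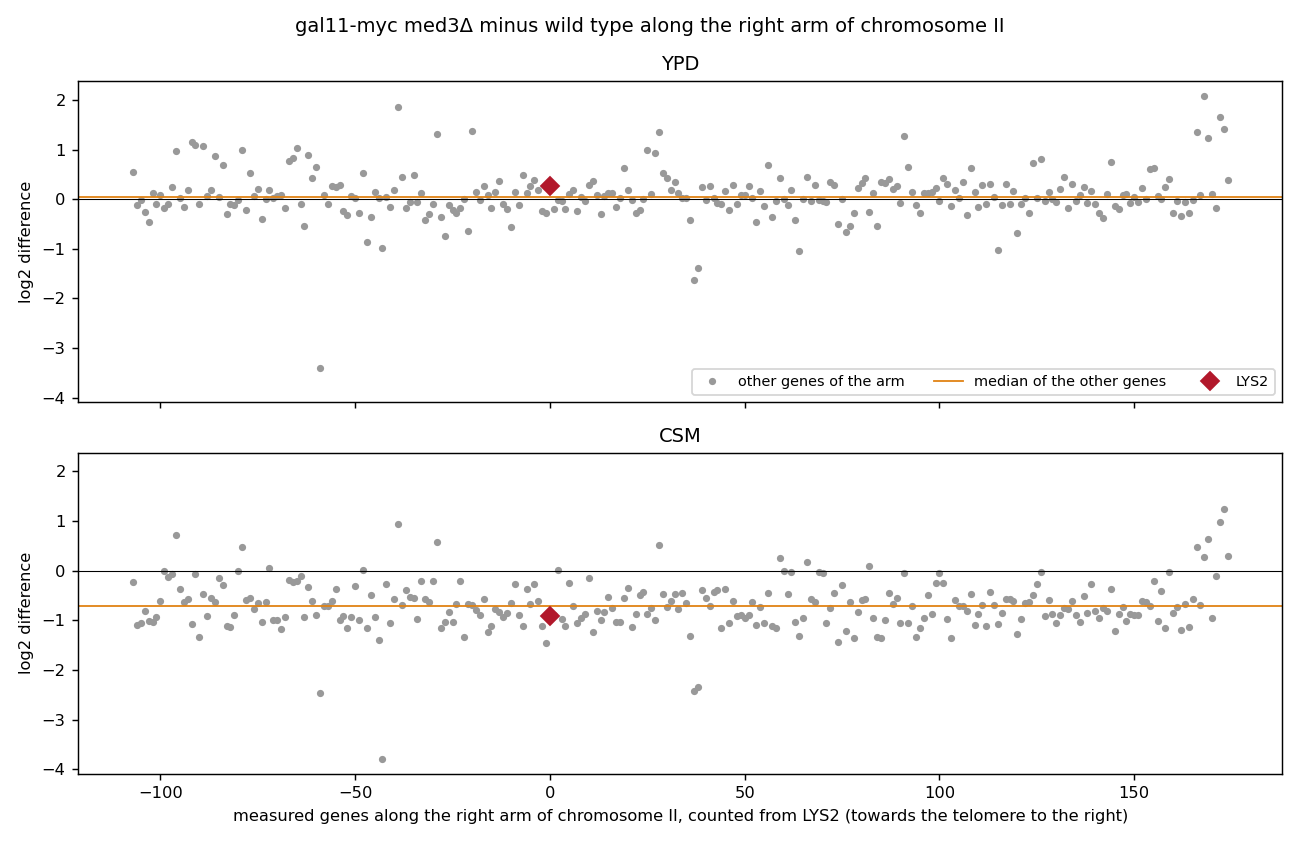
Difference between gal11-myc med3Δ and wild type (log2, y axis) for each measured gene along the right arm of chromosome II, in gene order from LYS2 (x axis), in YPD above and CSM below. The line is the median of the 281 other genes, 0.04 in YPD and -0.71 in CSM, and LYS2 (diamond) lies at 0.26 and -0.92.

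Among the other 8 lysine genes, gal11Δ med3Δ in YPD showed 1 rise, 4 falls and 3 genes that did not pass. Over all genes 27.5% rose and 19.4% fell, and 46.9% passed in either direction. The median over the 8 was -0.17, against 0.03 over all genes. LYS20, LYS4, LYS12 and LYS14 fell and LYS1 rose. LYS20 was the one that also reached 2-fold, which 7.47% of all genes did. In CSM the same strain showed 2 rises (LYS5 and LYS1), 1 fall (LYS20) and 5 genes that did not pass, beside 27.1% of all genes rising and 18.4% falling (45.5% in either direction). The median was 0.18, against 0.04. In gal11-myc med3Δ, LYS1 rose and LYS20 fell in YPD, where 21.2% of all genes rose and 12.1% fell (33.3% in either direction). In CSM LYS5 alone rose and none fell, where 22.4% of all genes rose and 14.2% fell (36.6% in either direction). The medians were 0.15 and 0.21, beside 0.03 and 0.06 over all genes. The share of the 8 that passed was below the background in 3 of these 4 comparisons. Counted by arrays that did not overlap with wild type, 1 of the 8 was above and 3 were below in gal11Δ med3Δ in YPD (genome-wide 52.4% in either direction), and 4 and 1 in CSM (58.2%). In gal11-myc med3Δ it was 2 above and 2 below in YPD (42.0%), and 6 and 2 in CSM, where 70.7% of all genes did not overlap. The YPD comparisons share their wild type arrays, as do the CSM comparisons.

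**Figure D2:**
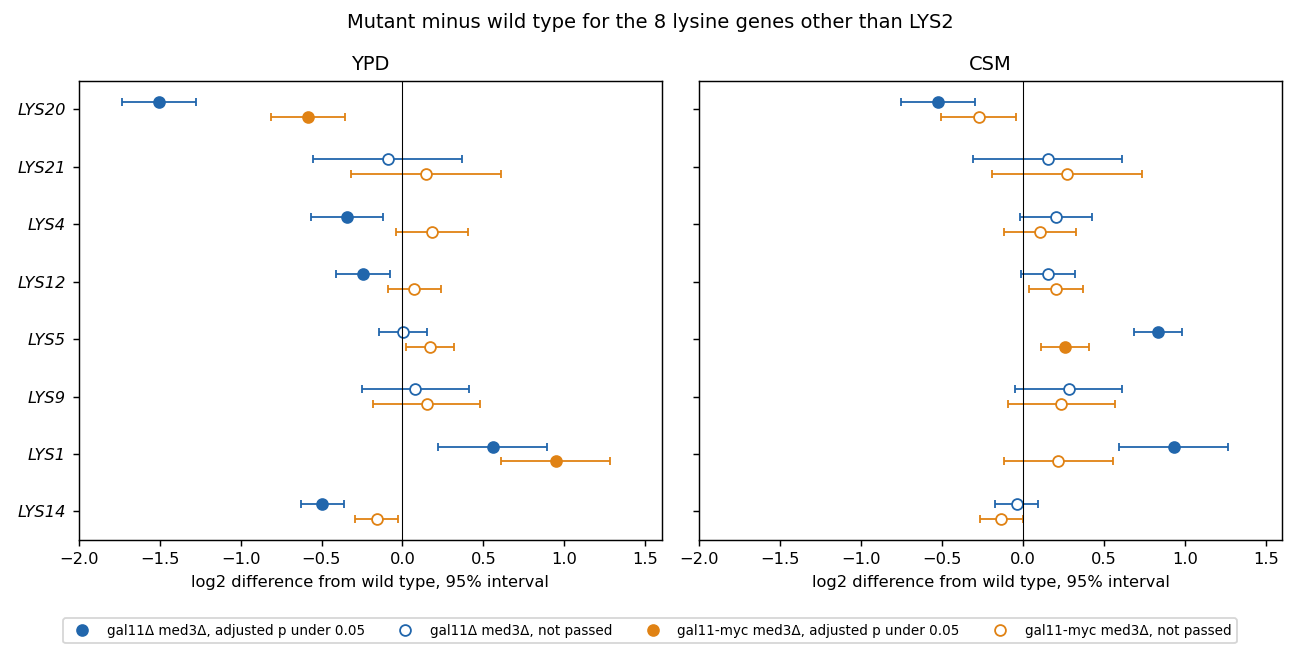
Log2 difference from wild type (x axis, bars are 95% intervals, n = 3 arrays per group) for the 8 lysine genes other than LYS2 (y axis) in gal11Δ med3Δ (blue) and gal11-myc med3Δ (orange), in YPD and CSM. LYS20 is at -1.50 in gal11Δ med3Δ in YPD, and LYS5 and LYS1 are at 0.83 and 0.93 in the same strain in CSM.

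LYS20 encodes a homocitrate synthase, the enzyme of the committed step. Its wild type values in YPD were 0.34, 0.65 and 0.42, those of gal11-myc med3Δ 0.00, 0.03 and -0.36, and those of gal11Δ med3Δ -0.97, -0.99 and -1.13. In CSM they were 0.31, 0.20 and 0.32 in wild type, 0.04, -0.03 and 0.00 in gal11-myc med3Δ, and -0.32, -0.22 and -0.20 in gal11Δ med3Δ. In both media every wild type array was above every gal11-myc med3Δ array, and every one of those was above every gal11Δ med3Δ array. LYS20 fell by 1.50 ± 0.11 in gal11Δ med3Δ in YPD (2.83-fold, adjusted p = 9.44e-09) and by 0.53 in CSM (adjusted p = 0.000716). In gal11-myc med3Δ it fell by 0.58 in YPD (adjusted p = 0.000526), while the CSM value of -0.28 did not pass (adjusted p = 0.0567). The YPD fall in gal11-myc med3Δ was not called in the authors' deposited table (corrected p = 0.150). Between the mutants it was -0.92 ± 0.11 in YPD (adjusted p = 9.83e-06) and -0.25 in CSM (adjusted p = 0.129). That -0.25 passed with only the 9 CSM arrays (adjusted p = 0.0112) and with only the 6 arrays compared (adjusted p = 0.0334). The CSM difference of gal11-myc med3Δ from wild type passed in 6 of 15 alternatives. Its adjusted p was lowest at 0.00114, with only the 6 arrays compared.

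LYS21 encodes the other homocitrate synthase, and its sequence is close to that of LYS20, so the signals of the pair may not be fully separate. None of its 4 differences from wild type passed, with gal11Δ med3Δ at -0.09 in YPD and 0.15 in CSM and the other mutant at 0.14 and 0.27. For that 0.27 every gal11-myc med3Δ array was above every wild type array. It passed with only the 6 arrays compared (adjusted p = 0.0155) and not in the other 14 of 15 alternatives. The 95% interval in gal11Δ med3Δ in YPD was -0.55 to 0.37. In CSM the 3 arrays of that strain gave -0.83, 0.31 and 0.31, against -0.12, -0.16 and -0.39 in wild type, so 1 array was apart from the other two. Without that array (replicate 1) LYS21 was 0.53 higher than wild type (adjusted p = 0.00298), and without replicate 2 or 3 it was at -0.04. Taken within each array, LYS20 minus LYS21 in YPD was -0.99 ± 0.05 (SD, n = 3) in gal11Δ med3Δ, -0.30 ± 0.06 in gal11-myc med3Δ and 0.43 ± 0.07 in wild type. The 3 strains did not overlap in this difference of centred values in YPD. In CSM it was -0.18 ± 0.60 in gal11Δ med3Δ, -0.05 ± 0.08 in gal11-myc med3Δ and 0.50 ± 0.19 in wild type, and gal11Δ med3Δ overlapped both other strains. An exact permutation test (2-sided) of 3 arrays against 3 cannot go below p = 0.1, so that test could not pass whatever the values. No other test of this difference was run.

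LYS4, the homoaconitase gene, and LYS12, the homoisocitrate dehydrogenase gene, followed in the mitochondrial steps. In YPD, LYS4 gave -0.10, 0.12 and 0.00 in wild type, 0.17, 0.12 and 0.28 in gal11-myc med3Δ, and -0.32, -0.58 and -0.09 in gal11Δ med3Δ. The highest gal11Δ med3Δ array overlapped the lowest wild type array, and the mutants did not overlap. LYS4 fell by 0.34 ± 0.11 in gal11Δ med3Δ (adjusted p = 0.0139) and was 0.52 lower there than in gal11-myc med3Δ (adjusted p = 0.00224). Without replicate 2 of gal11Δ med3Δ the fall from wild type was -0.21 (adjusted p = 0.0909), and without replicate 2 of wild type it did not pass either (adjusted p = 0.0653). LYS12 gave 0.00, 0.33 and -0.01 in wild type against -0.13, -0.07 and -0.22 in gal11Δ med3Δ, with no overlap, and fell by 0.24 ± 0.08 (adjusted p = 0.0171). Without wild type replicate 2, its highest array, the fall was -0.13 (adjusted p = 0.117). LYS12 was 0.32 lower in gal11Δ med3Δ than in gal11-myc med3Δ (adjusted p = 0.0100), a call lost without gal11-myc med3Δ replicate 2 (adjusted p = 0.0549), with only the 9 YPD arrays (0.107) and with only the 6 arrays compared (0.0616). For LYS4 the call between the mutants was lost with only the 6 arrays compared (adjusted p = 0.0647). With only the 9 or the 6 arrays, neither fall from wild type passed (adjusted p from 0.0572 to 0.134), nor did either in the authors' deposited table (corrected p of 0.285 for LYS4 and 0.305 for LYS12). In CSM neither gene passed in either mutant, with values from 0.10 to 0.20. With only the 9 CSM arrays, LYS12 rose in gal11Δ med3Δ (adjusted p = 0.0164) and in gal11-myc med3Δ (adjusted p = 0.00518). It also did so in the authors' deposited table (corrected p of 0.0338 and 0.00128). LYS4 passed in neither of these settings.

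LYS14 encodes the pathway's activator. In YPD it gave 0.14, 0.11 and 0.28 in wild type, 0.10, 0.00 and -0.05 in gal11-myc med3Δ, and -0.31, -0.39 and -0.26 in gal11Δ med3Δ, with the last strain below all other arrays. It fell by 0.49 ± 0.06 in gal11Δ med3Δ (adjusted p = 7.89e-06) and was 0.34 lower there than in gal11-myc med3Δ (adjusted p = 0.00119). The difference of gal11-myc med3Δ from wild type was -0.16 (adjusted p = 0.0641). In CSM it was -0.04 in gal11Δ med3Δ and -0.13 in gal11-myc med3Δ, and neither passed.

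LYS5 encodes the phosphopantetheinyl transferase that activates Lys2. In CSM its values were -0.15, -0.29 and -0.30 in wild type, 0.07, -0.04 and 0.00 in gal11-myc med3Δ, and 0.67, 0.52 and 0.56 in gal11Δ med3Δ, so that the 3 strains stood in separate ranges. LYS5 rose by 0.83 ± 0.07 in gal11Δ med3Δ (adjusted p = 4.01e-08) and by 0.26 in the other mutant (adjusted p = 0.00749). The mutants differed by 0.57 (adjusted p = 1.93e-05). In YPD the differences from wild type were 0.00 and 0.17, and neither passed.

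LYS1 encodes saccharopine dehydrogenase, which releases lysine in the last step. In CSM it gave -0.23, -0.20 and -0.25 in wild type, 0.00, -0.03 and 0.00 in gal11-myc med3Δ, and 0.78, 0.71 and 0.62 in gal11Δ med3Δ. It rose by 0.93 ± 0.16 in gal11Δ med3Δ (adjusted p = 0.000130), was 0.22 above wild type in gal11-myc med3Δ (adjusted p = 0.316) and differed by 0.71 between the mutants (adjusted p = 0.00485). That 0.22 passed with only the 9 CSM arrays (adjusted p = 0.00925) and with only the 6 arrays compared (adjusted p = 0.000794). It also passed in the authors' deposited table (corrected p = 0.00323). In YPD the wild type arrays were at -1.02, -0.16 and -0.48, below all of 0.39, 0.48 and 0.30 in gal11-myc med3Δ and 0.00, 0.05 and -0.04 in gal11Δ med3Δ. LYS1 rose by 0.95 in gal11-myc med3Δ (adjusted p = 0.000221) and by 0.56 in gal11Δ med3Δ (adjusted p = 0.00877). Without wild type replicate 1, its lowest array, the rise in gal11Δ med3Δ was 0.32 (adjusted p = 0.0556). In the authors' deposited table neither YPD rise was called (corrected p = 0.140 in gal11-myc med3Δ and 0.261 in gal11Δ med3Δ). The 38 measured genes of the right arm of chromosome IX, where LYS1 lies, had a median of 0.28 in both mutants in YPD. In CSM that median was 0.19 in gal11Δ med3Δ and 0.17 in gal11-myc med3Δ. The part of these shifts in the LYS1 values was not tested in either medium.

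LYS9 encodes saccharopine reductase. None of its differences from wild type passed, with gal11Δ med3Δ at 0.08 in YPD and 0.28 in CSM and the other mutant at 0.15 and 0.24. Its wild type arrays in YPD spread widely, at -0.61, 0.43 and -0.09, while the 6 mutant arrays lay between -0.03 and 0.11. Without wild type replicate 2, LYS9 was 0.34 higher in gal11Δ med3Δ (adjusted p = 0.0155) and 0.41 higher in gal11-myc med3Δ (adjusted p = 0.00713). Without wild type replicate 1 the direction turned, to -0.18 (adjusted p = 0.188) and -0.11 (adjusted p = 0.498). In CSM every wild type array was below every mutant array, and with only the 9 CSM arrays in the fit both differences passed (adjusted p = 0.00166 in gal11Δ med3Δ and 0.00549 in gal11-myc med3Δ).

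**Figure D3:**
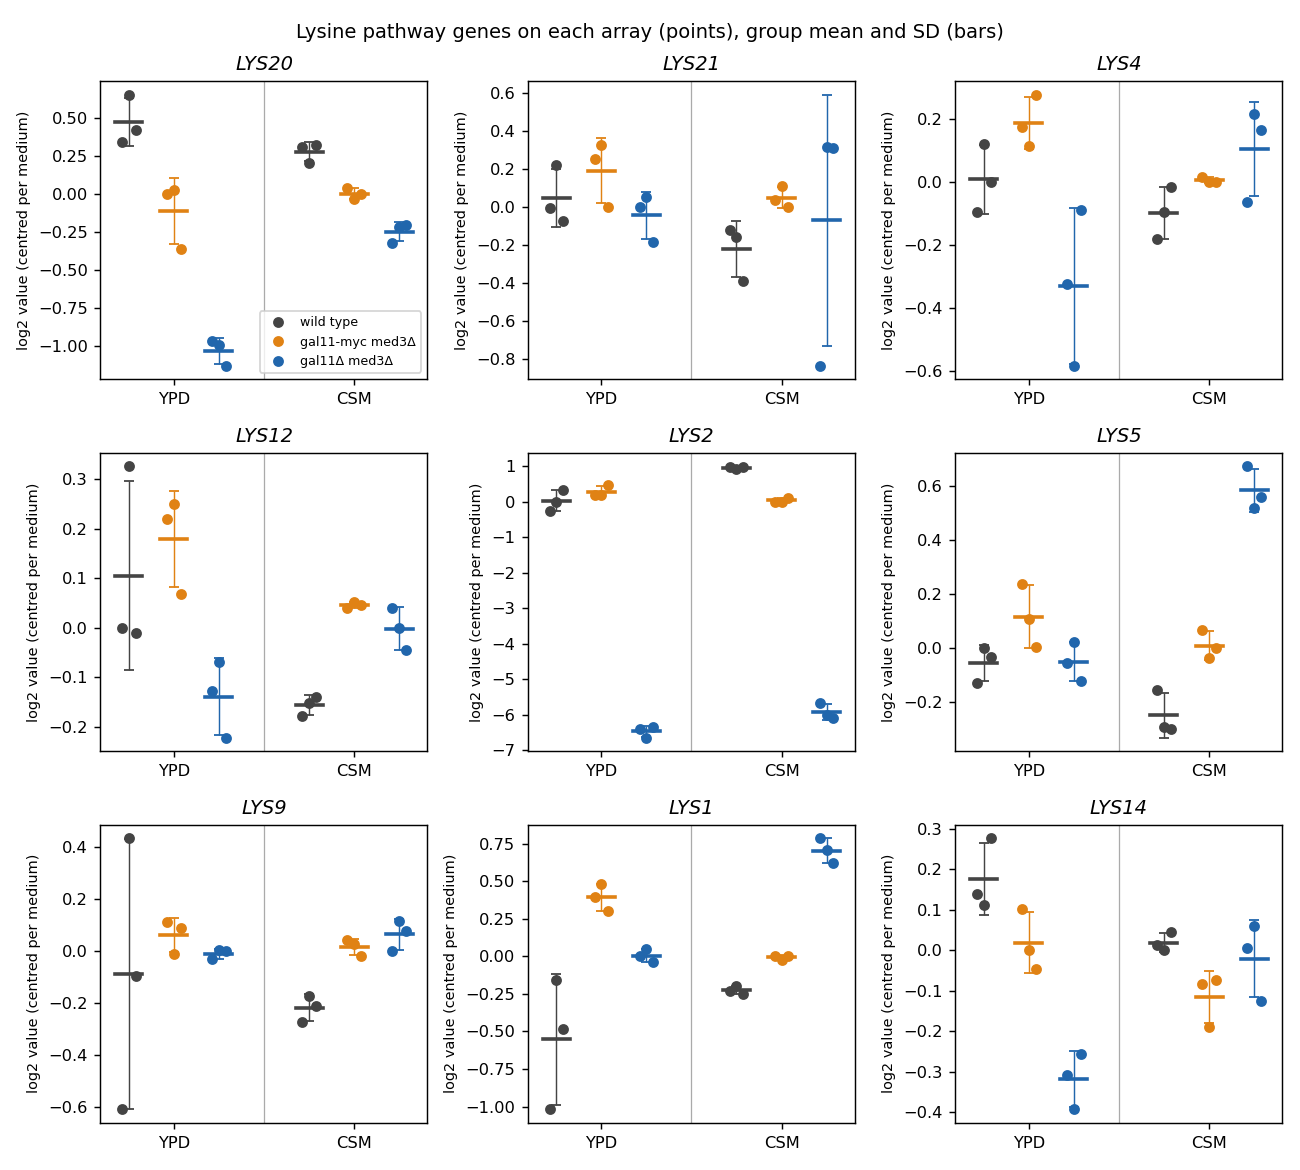
Centred log2 value (y axis, own scale per panel) of the 9 lysine genes on each of the 18 wild type and mutant arrays (points), with group mean and SD (bars, n = 3), in YPD and CSM. LYS20 falls in the order wild type, gal11-myc med3Δ, gal11Δ med3Δ in both media, and LYS2 lies below -5 on all gal11Δ med3Δ arrays.

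The mutants were also compared directly over the 8 genes other than LYS2. In YPD all 8 were lower in gal11Δ med3Δ than in gal11-myc med3Δ, a direction that 53.3% of all genes shared, with a median of -0.33 against -0.02 over all genes. Of these, 4 fell (LYS20, LYS4, LYS12 and LYS14) and none rose, where 6.15% of all genes fell and 8.96% rose. The mutants did not overlap for 5 of the 8, all lower in gal11Δ med3Δ, beside 31.0% of all genes in either direction. In CSM 2 of the 8 were higher in gal11Δ med3Δ (LYS5 and LYS1), none was lower and 6 did not pass, beside 10.3% and 7.65% of all genes. The median was 0.07, against -0.01. For 2 genes the mutants did not overlap with gal11Δ med3Δ above, and for 1 with it below, beside 41.5% of all genes.

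The effect of gal11Δ med3Δ on these genes differed between the media. The CSM difference from wild type minus the YPD difference was above 0 for all 8, as for 53.2% of all genes, and passed for LYS20, LYS5, LYS4, LYS14 and LYS12, where 15.1% of all genes passed in that direction and 16.0% in the other. The median of the 8 was 0.43, against 0.03 over all genes. LYS20 was less reduced in CSM, and LYS5 was raised in CSM with a YPD difference of 0.00. LYS14 fell in YPD and was at -0.04 in CSM, which did not pass. LYS4 and LYS12 were below wild type in YPD and not in CSM. For gal11-myc med3Δ the same contrast passed for LYS1 alone among the 8, at -0.73 ± 0.23 (adjusted p = 0.0401), where 5.51% of all genes passed upwards and 8.17% downwards. That call was lost under 12 of 18 alternatives, with adjusted p up to 0.0845.

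BY4742 gave a second strain without LYS2 signal. Its arrays were centred on their own median, so its comparison with wild type was taken from the authors' deposited table for YPD. The header of that comparison names BY4741 first, but its values run as BY4742 over BY4741, since LYS2 (lys2Δ0 in the BY4742 label) is at -88.4-fold and MET17 (met15Δ0 in the wild type label) at 440-fold. In the authors' deposited table LYS2 was at -86.7-fold in gal11Δ med3Δ over BY4741. Of the other 8 lysine genes, 7 were lower in BY4742, as were 55.3% of all named probe sets in the authors' deposited table. LYS9 was lowest at -3.12-fold (p = 0.00883), followed by LYS20 at -1.46, LYS4 at -1.35 and LYS12 at -1.33 in the authors' deposited table. In the authors' deposited table LYS9 was number 11 of 5475 probe sets from the most negative. The deposited wild type values of LYS9 in YPD spread widely, with an SD of 0.52 (log2, n = 3 arrays). None of the 8 had a corrected p under 0.05 in the authors' deposited table (the lowest was 0.503), and 4 had an uncorrected p under 0.05, beside 8.80% of all. Only 17 of the 5475 probe sets reached a corrected p under 0.05 in that comparison of the authors' deposited table, LYS2 among them (0.00433).

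In the authors' deposited table, gal11Δ med3Δ and BY4742 were each set against BY4741 in YPD. In that order of strains, the authors' deposited table had LYS9 at 1.06-fold and -3.12-fold, LYS1 at 1.45 and -1.17, and LYS14 at -1.44 and -1.04. LYS20 was at -2.78 (corrected p = 0.00737) and -1.46, LYS4 at -1.25 and -1.35, and LYS12 at -1.18 and -1.33 in the authors' deposited table. The difference between these strains was not tested, because the deposited values do not join their arrays.

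**Figure D4:**
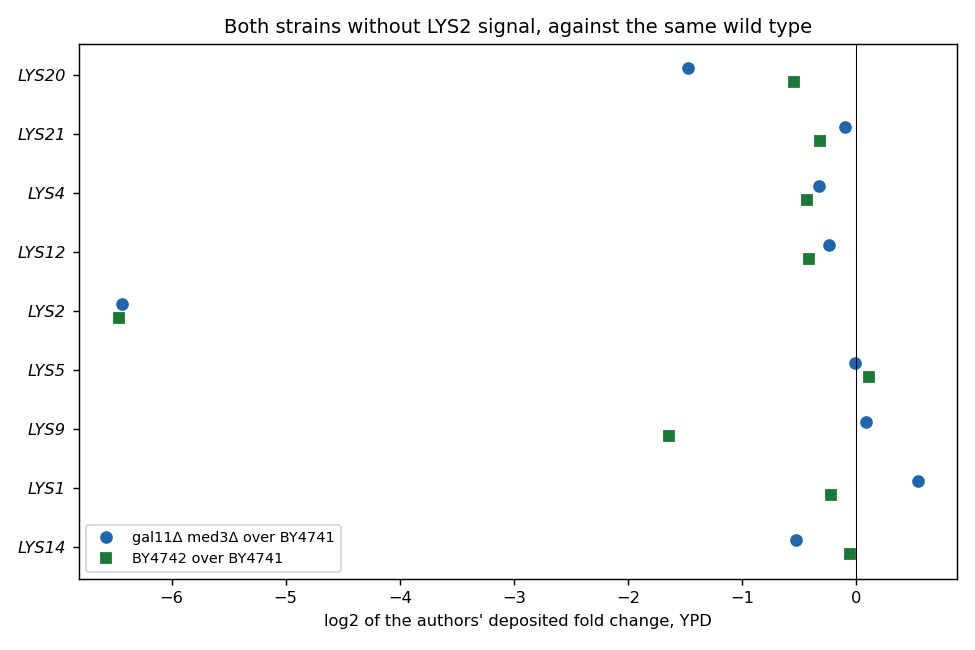
Log2 of the authors' deposited fold change in YPD (x axis) for the 9 lysine genes (y axis) in gal11Δ med3Δ (circles) and BY4742 (squares), both over BY4741. LYS2 lies at about the same place in both, while LYS9 is at -1.64 in BY4742 and 0.09 in gal11Δ med3Δ.

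The genes that supply the pathway with 2-oxoglutarate and nitrogen moved in both directions. Of 14 measured, 6 rose and 3 fell in gal11Δ med3Δ in YPD, and 7 rose and 4 fell in CSM. In gal11-myc med3Δ 5 rose and none fell in YPD, and 5 rose and 4 fell in CSM. The shares over all genes were 27.5% and 19.4%, then 27.1% and 18.4%, in gal11Δ med3Δ (rose and fell, YPD then CSM), and 21.2% and 12.1%, then 22.4% and 14.2%, in the other mutant. ODC1, a mitochondrial carrier of 2-oxoglutarate and 2-oxoadipate, rose in both mutants and both media, with gal11Δ med3Δ at 1.32 (YPD) and 1.55 (CSM) and the other mutant at 0.88 and 0.75. GDH3, a glutamate dehydrogenase, rose in CSM by 2.46 in gal11Δ med3Δ (adjusted p = 0.000114) and by 2.25 in gal11-myc med3Δ (adjusted p = 0.000359). ACO1, the aconitase gene, fell by 0.57 in gal11Δ med3Δ in YPD (adjusted p = 0.0275) and was at -0.76 in CSM in gal11-myc med3Δ (adjusted p = 0.00611).

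Among 9 regulators and permeases, 3 rose and 2 fell in gal11Δ med3Δ in YPD, 5 rose and 2 fell in CSM, and 2 rose and 2 fell in each medium in gal11-myc med3Δ, beside those same shares of all genes (27.5% and 19.4% in the first of these comparisons). ALP1, a basic amino acid permease, rose by 2.59 in gal11Δ med3Δ (adjusted p = 6.49e-07) and 1.98 in gal11-myc med3Δ (adjusted p = 1.99e-05) in CSM. LYP1, the lysine permease, was among the risen genes in both mutants and both media, by 0.16 to 0.54. Its YPD rises were not called in the authors' deposited table (corrected p = 0.159 in gal11Δ med3Δ and 0.136 in gal11-myc med3Δ). CAN1, the arginine permease, rose by 1.04 in gal11Δ med3Δ in YPD, beside the median of 0.79 for its chromosome V. RTG3, a regulator of the retrograde response to mitochondrial state, fell in CSM by 0.63 in gal11Δ med3Δ and 0.91 in gal11-myc med3Δ, beside left arm medians of -0.75 and -0.78 for its chromosome II. GCN4, the general control activator, was at 0.10 in YPD and -0.08 in CSM in gal11Δ med3Δ, which did not pass, beside chromosome V medians of 0.79 and 0.16. In gal11-myc med3Δ it fell by 0.19 and 0.17.

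Arginine and histidine genes, further targets of general control, were mixed as well. Of 7 arginine genes measured, 1 rose and 4 fell in gal11Δ med3Δ in YPD, and 3 rose and 2 fell in CSM. In gal11-myc med3Δ 3 rose and none fell in YPD, and 1 rose and 3 fell in CSM. Over all genes 27.5% rose and 19.4% fell, then 27.1% and 18.4%, in gal11Δ med3Δ, and 21.2% and 12.1%, then 22.4% and 14.2%, in gal11-myc med3Δ. ARG3, the ornithine carbamoyltransferase gene, fell in gal11Δ med3Δ in both media (-1.62 in YPD and -2.17 in CSM), while ARG8, the acetylornithine aminotransferase gene, fell by 0.74 in YPD and rose by 1.30 in CSM. Of 6 histidine genes, 3 rose and none fell in both mutants in YPD. In CSM 2 rose and 2 fell in gal11Δ med3Δ, and none rose and 3 fell in gal11-myc med3Δ, with HIS4 at -0.76 and -1.90. HIS1 lies on chromosome V and was at 0.48 in gal11Δ med3Δ in YPD, beside the chromosome's median of 0.79. HIS7 lies on the right arm of chromosome II and was at -0.49 in gal11-myc med3Δ in CSM, beside the arm's median of -0.71.

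The genes most like LYS2 over the 18 wild type and mutant arrays were GAL11 (Pearson r = 0.993), MFA2 (0.990), AGA2 (0.987), HMRA1 (0.986) and STE2 (0.985). GAL11 is deleted in gal11Δ med3Δ, and the other four belong to the a mating type (HMRA1 shares its sequence with MATa1), while that strain is labelled MATα. All these values are set by the 6 gal11Δ med3Δ arrays against the other 12. For the mean of the 6 enzyme genes LYS1, LYS4, LYS9, LYS12, LYS20 and LYS21, the most like were KSH1 (0.830), ARG2 (0.782), GIS2 (0.771), LSO2 (0.764) and KRS1 (0.758). Among pairs of lysine genes, the highest r were 0.83 for LYS20 with LYS14 (0.93 over the 9 YPD arrays and 0.23 over the 9 CSM arrays) and 0.80 for LYS5 with LYS1 (0.71 and 0.98). Some members of the enzyme mean ran against each other. LYS20 with LYS1 was at -0.36 (-0.34 and -0.94) and LYS20 with LYS9 at -0.14 (0.01 and -0.87). The 18 arrays share strains and media, so these are descriptions.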

How the data were processed

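Groups and replicate numbers came from the sample titles. The authors deposited log2 values for 10928 probe sets (RMA, per the submitters' processing notes), each centred on its median within 3 sets of arrays (YPD, CSM and BY4742). The base of the log2 scale was read from the values, and the centring leaves no level for a filter on dim probe sets. The authors' deposited table gives signed fold changes, each with its p-value before and after correction, whose test is not given in the sources used here. It was made in GeneSpring 11.5.1, per the file headers. The group differences computed from the deposited values matched its folds in CSM within 0.001 for 100% of probe sets, but in YPD only for 2.80% (gal11-myc med3Δ) and 2.74% (gal11Δ med3Δ), with r of 0.992 and 0.996.

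Probe sets with 1 symbol found in the RefSeq gene table (assembly R64, for names and gene order) gave 5449 genes, with 47 of them averaged over several probe sets. limma 3.58.1 (R 4.3.3) was fitted to 21 arrays as 7 group means with 14 residual degrees of freedom. All p-values were 2-sided, with the Benjamini-Hochberg adjustment taken over the 5449 genes. Precision is limited by 3 arrays per group, whose median gene SD ran from 0.0463 to 0.141. In YPD, same-numbered arrays of different strains deviated together (r from 0.146 to 0.606), so the numbers may pair them. The main fit left this pairing out, so the reported YPD p-values are unpaired. A replicate block entered only as an alternative. The text names all 9 lysine genes, strain checks, neighbours of LYS2, and up to 3 genes per list with the largest difference in a comparison, and carries named genes across comparisons. LYP1 and GCN4 are also named for their roles, and ODC2 and the mating type genes of BY4742 after their values were seen. The members, lists and tests were chosen with earlier results of these data known. Alternatives covered the arrays fitted, array scaling, features, spread estimate, pairing, left-out arrays and the authors' table.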

Additional observations from a re-analysis of the deposited data

Results flagged for a closer look

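In 7 cases the difference from wild type was not the same in the 2 media by a direct test, the CSM difference minus the YPD difference in 1 limma fit. In gal11Δ med3Δ these were LYS20 (0.98 ± 0.15 SE, adjusted p = 0.000133), LYS5 (0.83 ± 0.10, adjusted p = 8.51e-06), LYS4 (0.54 ± 0.15, adjusted p = 0.0105), LYS14 (0.46 ± 0.09, adjusted p = 0.000969) and LYS12 (0.40 ± 0.11, adjusted p = 0.0114). In gal11-myc med3Δ they were LYS2 (-1.18 ± 0.18, adjusted p = 0.000235) and LYS1 (-0.73 ± 0.23, adjusted p = 0.0401). Beside LYS2, the other genes of its chromosome arm had a median of -0.82 for the same contrast.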

How the results depend on the processing

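Values are counts of the 8 lysine genes other than LYS2 that passed. For gal11Δ med3Δ in YPD the count was 5, but 3 with only the 9 arrays of the medium, 2 with only the 6 arrays compared and 2 in the authors' deposited table, and 4 to 5 when 1 array was left out. In CSM it was 3, but 5 with only the 9 arrays of the medium and 5 in the authors' deposited table, and 3 to 5 with 1 array left out (5 without gal11Δ med3Δ replicate 1). For gal11-myc med3Δ in YPD it was 2, but 0 in the authors' deposited table, where 2 of the 8 had an uncorrected p under 0.05, and 2 to 4 with 1 array left out (4 without wild type replicate 2). In CSM it was 1, but 2 with each array shifted to a median of 0, 2 without the BY4742 arrays, 5 with only the 9 arrays of the medium, 7 with only the 6 arrays compared, 5 in the authors' deposited table, and 3 with the replicate number as a block, where the arrays share only a number. LYS12 (adjusted p = 0.0253) and LYS20 (0.0468) were the genes added by the block, which changed no call among the 8 in YPD. Between the mutants the count was 3 to 5 in YPD and 2 in CSM with 1 array left out. In CSM it was 3 with only the 9 arrays of the medium and with only the 6 arrays compared, where LYS20 was added. The gal11Δ med3Δ contrast between media gave 5 to 7. That of gal11-myc med3Δ gave 0 to 1, 0 with all probe sets tested and 0 with the arm of LYS2 centred on its median (limma, where LYS1 was the gene in question). Under that centring, added after the data were seen, LYS2 in gal11Δ med3Δ turned from -0.38 to 0.27 for the contrast between media. Of 1143 single-gene values under alternatives, 1056 kept direction and side of the threshold, 33 lost a call, 39 gained one, 14 changed sign and 1 moved by more than the spread. Apart from LYS2 above, which in gal11Δ med3Δ was given with no test, values that changed sign passed under neither setting. With 1 array left out, the ranges were -0.18 to 0.34 for LYS9 and -0.033 to 0.040 for LYS5 in gal11Δ med3Δ in YPD, -0.11 to 0.41 for LYS9 in gal11-myc med3Δ in YPD, -0.041 to 0.53 for LYS21 and -0.079 to 0.014 for LYS14 in gal11Δ med3Δ in CSM, and -0.31 to 0.26 for LYS21 between the mutants in CSM. For the contrast between media they were -0.057 to 0.46 for LYS9 in gal11Δ med3Δ, and -0.18 to 0.34 for LYS9 and -0.026 to 0.066 for LYS14 in gal11-myc med3Δ. LYS5 in gal11Δ med3Δ in YPD was at -0.011 in the authors' deposited table. The causes of these changes were not tested. Signal over background was lost with the centring, so how far the lowest LYS2 values lie above background is not known.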
